A study of Mus musculus with 16 samples.

Results

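The genes described here encode the factors that start protein synthesis on messenger RNA and carry it forward codon by codon. Members were all mouse genes with a symbol beginning Eif1 to Eif6, Eef1 or Eef2, without the eIF5A genes, the sex-linked Eif2s3 forms and names ending in -ps. The count table held 64 of them among 32989 identifiers, and 62 had a mean count of at least 5 over the 16 libraries and were tested among 19049 genes. Eef1a2 and Eif4e1b fell below that mean, and 1 further annotated match, Eif2c5, was not analysed here. The study asked how polyamine metabolism, and N1-acetylspermidine (N1-AcSpd, an acetylated polyamine) in particular, bears on hair follicle stem cells (HFSCs) and their translation. Wild-type C57BL/6J mice in the resting phase of the hair cycle gave epidermal cells for 3D organoid (3C) cultures, which were grown for 2 weeks and sorted for the surface proteins α6 integrin and CD34. RNA was sequenced from its 3′ ends and counted by molecular barcodes (UMIs), so that 1 count stands for 1 captured molecule.

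Initiation begins when eIF2 brings the initiator tRNA to the small ribosomal subunit, together with eIF1, eIF1A, eIF3 and eIF5. The eIF4 factors hold the capped end of the messenger RNA and unwind it, eIF5B joins the large subunit, and the elongation factors eEF1 and eEF2 then deliver aminoacyl-tRNAs and move the ribosome. The best known brakes are phosphorylation of eIF2 by 4 stress kinases, which starves initiation of active eIF2 by blocking its exchange factor eIF2B, and the eIF4E-binding proteins, which hold eIF4E until mTOR signalling makes them let go. Quiescent stem cells, those of the hair follicle among them, are known for low rates of protein synthesis.

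The 16 libraries formed 4 groups of 4, and each of the 4 mice, as read from a shared code in the labels, gave 1 library to every group. The groups were α6+/CD34- progenitors and α6+/CD34+ HFSCs from organoids left untreated, and both fractions from organoids given N1-AcSpd for 72 h. All were cultured cells sorted from organoids, with no genetic alteration in any group. Library totals ran from 15480075 to 29074855 UMIs, and the tested members took up 0.788 to 0.847% of the UMIs of each library, with ranges that overlapped between all 4 groups. Cd34 itself ranged from 2.87 to 64.0 CPM (counts per 1000000 UMIs, with library totals scaled by TMM), with each CD34+ library above every CD34- library. Itga6, the other sort marker, ranged from 45.7 to 68.8 CPM and was lower in CD34+ cells in both conditions, without overlap (log2 -0.34 and -0.17). The 6 basal keratinocyte markers summed to 6909 to 7272 CPM in untreated CD34- and 6509 to 7340 CPM in untreated CD34+ libraries. Of these 6, 4 were higher and 2 lower in CD34+ cells. Genes of differentiated keratinocytes moved with the fractions: 9 marker genes summed to 1038 to 1390 CPM in untreated CD34- libraries and to 300 to 327 CPM in untreated CD34+ libraries, and to 1254 to 1585 and 315 to 408 CPM after N1-AcSpd. All 9 were lower in CD34+ cells in both conditions, none was at 0, and their part in the differences below was not tested. The summed markers of fibroblasts, immune cells and Schwann cells were at most 1.52, 4.99 and 1.47 CPM. Those of melanocytes were at most 36.1 CPM, nearly all Pmel and Mitf, and of the endothelial markers Pecam1 was at 1686 to 2053 CPM while Kdr and Tek were at most 0.360 and 0.274 CPM. In such bulk samples, fewer cells of a type and less RNA per cell cannot be told apart.

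The first comparison asked how HFSCs differed from progenitors. Translation factor genes were more often lower than higher in CD34+ cells, by small amounts: in untreated cells 31 members fell and 6 rose, and 25 did not pass the test. That made 59.7% of the members called at an adjusted p under 0.05, against 32.1% of all genes tested, of which 16.1% were higher and 16.1% lower. The median log2 fold change (CD34+ over CD34-) was -0.12 over the members and 0.02 over all genes. Under N1-AcSpd, 30 members fell and 4 rose, 54.8% against 33.3% of all genes (16.5% higher, 16.8% lower), with medians of -0.15 and -0.01. The libraries of the 2 fractions did not overlap for 32 members in untreated cells, or 51.6%, against 32.2% of all genes, and for 30 members, or 48.4%, under N1-AcSpd, against 34.4%. Members were counted more deeply than most genes, with a median mean count of 1420.5 against 113, which makes a given difference easier to call.

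The calls of both conditions came from different libraries of the same mice. Of the members called, 32 were called with the same sign in both, which is 86.5% of the untreated and 94.1% of the N1-AcSpd list, and 29 of these were lower. Scaling mattered for the split. With library totals as the only scaling, the median of all genes moved to 0.14 and 0.11, and 8 members were called higher and 11 lower in untreated cells, against 25.5% and 9.25% of all genes, and 10 higher and 13 lower under N1-AcSpd, against 25.2% and 10.0%. Relative to the median of all genes, that of the members lay at -0.145 in untreated and -0.139 in N1-AcSpd cells, with 51 of 62 and 44 of 62 members below it. A change of scaling shifts all genes nearly alike, so these relative values are bound to stay the same and bear on no choice of scaling. The 6 members higher in untreated CD34+ cells (Eif1b, Eif4a2, Eif4e3, Eif2ak2, Eef1akmt2 and Eef2kmt) were called higher with TMM, DESeq2 size factors and library totals. Eif3h (0.17 and 0.16) and Eif4h (0.12 and 0.13) were called higher in untreated and N1-AcSpd cells with library totals alone. Of the 31 lower ones, 11 kept their call with library totals (Eif6, Eif1a, Eif1ad, Eif5, Eif2s2, Eif2b3, Eif3b, Eif3d, Eif3j1, Eif3j2 and Eef1d), 18 stayed below 0 without a call, and Eif3m and Eif4g2 both came out at 0.01. With fewer mice, fewer genes of any kind were called in untreated cells: without mouse 1, with its 4 libraries, 22 members or 35.5%, against 24.6% of all genes, and without mouse 3, 23 members or 37.1%, against 25.0%.

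**Figure D1:**
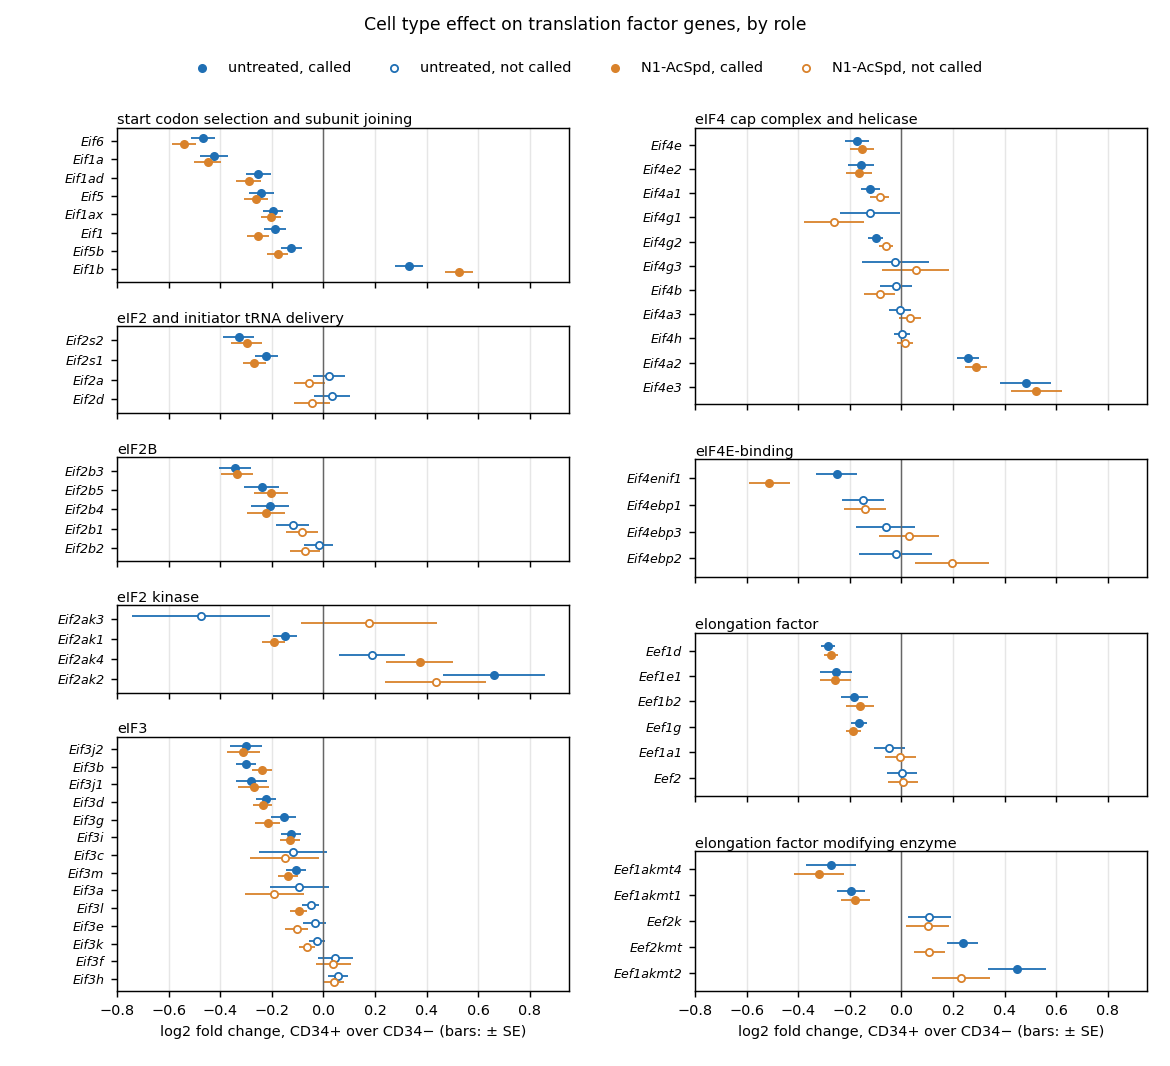
Log2 fold changes, CD34+ over CD34- (x axis), of 61 tested members grouped by role, with 1 standard error (SE) on each side, in untreated (blue) and N1-AcSpd (orange) cells. Filled points passed an adjusted p under 0.05. Eef1akmt3, at 0 in some libraries and with an SE above 1, is not drawn. Most points lie left of 0 under TMM scaling, and Eif1b, Eif4a2 and Eif4e3 lie right of it in both conditions. With library totals as scaling all points move right, with the medians of all genes at 0.14 and 0.11.

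The factors of start codon selection and subunit joining were the only role in which every tested member was called, 8 of 8 in each condition, with 7 lower in CD34+ cells and Eif1b higher, against the 32.1% and 33.3% of all genes called. That held for TMM scaling. With library totals Eif1b was still called higher, and of the lower genes Eif6, Eif1a, Eif1ad and Eif5 kept their call in both conditions, Eif1 under N1-AcSpd alone, and Eif1ax and Eif5b in neither. Eif6 (ENSMUSG00000027613, chromosome 2, 155819832 to 155826925, minus strand, on GRCm38), whose protein keeps the large ribosomal subunit from joining too early and takes part in making it, had 227, 252, 232 and 234 CPM in untreated CD34- libraries of mice 1 to 4 (mice are in this order throughout) and 169, 182, 167 and 167 CPM in untreated CD34+ libraries. The lowest CD34- library lay above the highest CD34+ library, and the log2 difference of -0.47 (SE 0.05, adjusted p = 5.3e-06) or 1.38-fold lower, was the largest decrease of the called members. Under N1-AcSpd the values were 264, 286, 265 and 271 CPM in CD34- and 185, 197, 191 and 173 CPM in CD34+ libraries, again without overlap, at -0.54 on the log2 scale (SE 0.05, adjusted p = 1.53e-06), or 1.46-fold lower. With library totals the 2 fold changes were -0.35 and -0.42, and both kept their call.

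Eif1a, which encodes a form of the scanning factor eIF1A, had 49.4, 52.2, 50.2 and 52.5 CPM in untreated CD34- and 36.5, 41.3, 39.1 and 35.3 CPM in untreated CD34+ libraries. After N1-AcSpd it had 51.8, 55.5, 55.4 and 53.9 CPM in CD34- and 39.4, 42.3, 40.5 and 36.4 CPM in CD34+ libraries. The fractions were apart in both conditions, by -0.42 (SE 0.05, adjusted p = 4.5e-05) and -0.45 (SE 0.05, adjusted p = 2.2e-05) on the log2 scale. Eif1ax, the other eIF1A gene, differed less, by -0.20 and -0.20. Eif1ad, which encodes a protein with an eIF1A-like domain, differed by -0.25 and -0.29. Eif5, which makes eIF2 hydrolyse GTP at the start codon, differed by -0.24 and -0.26. Eif5b, which joins the subunits, differed by -0.12 and -0.18, the smallest decreases of the role. Eif1, which guards start codon choice, was lower, at -0.19 and -0.25, and its counts were within 5% of those of Ide, a gene on another chromosome, in all 16 libraries, so which gene the UMIs came from cannot be told apart.

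Eif1b (ENSMUSG00000006941, chromosome 9, 120492232 to 120495330, plus strand), the paralogue of Eif1, went the other way. It had 17.4, 16.2, 15.1 and 15.96 CPM in untreated CD34- libraries and 20.6, 19.8, 19.2 and 21.7 CPM in untreated CD34+ libraries. After N1-AcSpd the values were 13.3, 13.4, 13.2 and 12.5 CPM in CD34- and 19.2, 19.2, 17.2 and 19.96 CPM in CD34+ libraries. No CD34- library reached the lowest CD34+ library in either condition. The log2 fold changes were 0.33 (SE 0.06, adjusted p = 0.000446) and 0.53 (SE 0.06, adjusted p = 7.69e-06), or 1.26-fold and 1.44-fold higher.

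**Figure D2:**
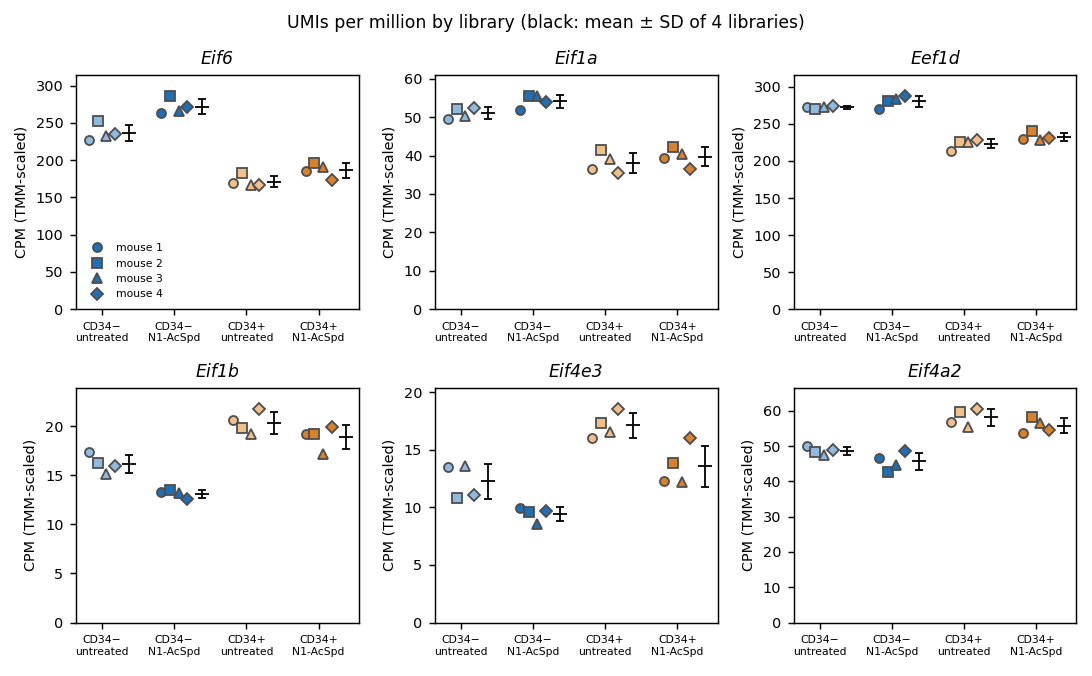
CPM (y axis, from 0) of 6 members in each of the 16 libraries. Symbols mark mice 1 to 4, and black bars give the mean ± SD of 4 libraries. Eif6, Eif1a and Eef1d were lower in CD34+ than in CD34- libraries, and Eif1b, Eif4e3 and Eif4a2 higher, without overlap in either condition. These directions held with library totals as scaling.

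Delivery of the initiator tRNA was represented by 4 genes, of which the eIF2 subunits were called and the alternative factors were not. Eif2s1, the α subunit that carries the regulated serine, had 119, 125, 117 and 126 CPM in untreated CD34- and 105, 108, 102 and 103 CPM in untreated CD34+ libraries. With N1-AcSpd its values were 129, 138, 141 and 144 CPM in CD34- and 113, 119.9, 118 and 108 CPM in CD34+ libraries. The fractions did not overlap, and the log2 fold changes were -0.22 (SE 0.04, adjusted p = 0.00147) and -0.27 (SE 0.04, adjusted p = 0.000292), the former losing its call with library totals (-0.11, adjusted p = 0.0968). Eif2s2, the β subunit, had 308, 297, 302 and 285 CPM in untreated CD34- and 238, 239.8, 251 and 222 CPM in untreated CD34+ libraries, and 307, 285, 321 and 285 CPM in CD34- and 259, 221, 265 and 229 CPM in CD34+ libraries after N1-AcSpd. These were apart by -0.33 (SE 0.06) and -0.30 (SE 0.06). The counts of Eif2s2 were within 5% of those of the agouti gene a, which overlaps it on the opposite strand, in all 16 libraries, and the counting was not stated to use strand. Eif2a and Eif2d, which can bring initiator tRNA without eIF2, had log2 fold changes between -0.05 and 0.03 and were not called.

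All 5 genes of the exchange factor eIF2B had lower means in CD34+ cells. Eif2b3, Eif2b4 and Eif2b5 were called in both conditions, 60% of the 5 against 32.1% and 33.3% of all genes. Eif2b3, the γ subunit, had 16.98, 17.05, 16.4 and 19.1 CPM in untreated CD34- and 12.97, 13.7, 14.3 and 13.9 CPM in untreated CD34+ libraries, and after N1-AcSpd 18.3, 19.4, 17.1 and 18.7 CPM in CD34- and 14.4, 15.5, 15.2 and 13.1 CPM in CD34+ libraries. The fractions did not overlap, with log2 fold changes of -0.34 (SE 0.06, adjusted p = 0.000844) and -0.34 (SE 0.06, adjusted p = 0.000813). Eif2b5, the catalytic ε subunit, differed by -0.24 and -0.20, and Eif2b4 by -0.21 and -0.22. The fractions overlapped for Eif2b5 under N1-AcSpd and for Eif2b4 in both conditions. With library totals Eif2b4 and Eif2b5 lost their calls in untreated cells, and Eif2b3 kept its call there. Eif2b1 and Eif2b2 were not called (from -0.12 to -0.02).

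The 4 eIF2 kinases did not share a direction. Eif2ak1 (HRI, the heme-sensing kinase) had 82.4, 86.9, 82.7 and 81.6 CPM in untreated CD34- libraries and 72.8, 78.1, 73.6 and 76.5 CPM in untreated CD34+ libraries. In treated cells it had 87.8, 101, 91.5 and 100.03 CPM in CD34- and 81.9, 81.4, 85.2 and 84.5 CPM in CD34+ libraries. It was lower in CD34+ cells, at -0.15 (SE 0.05, adjusted p = 0.0223) and -0.19 (SE 0.05, adjusted p = 0.00436), without overlap. Both calls were lost with library totals (-0.03 and -0.08), and Aimp2, overlapping on the opposite strand, had counts within 5% in 10 of 16 libraries. Eif2ak2 (PKR, the kinase of double-stranded RNA) had 1.76, 1.66, 1.39 and 1.67 CPM in untreated CD34- and 2.67, 2.52, 2.33 and 2.72 CPM in untreated CD34+ libraries. Every CD34+ value was higher, and its increase of 0.66 (log2, SE 0.20, adjusted p = 0.0198) was the largest increase of the called members, at a mean count of 42.8. The call of Eif2ak2 was lost in 5 of 20 fits that left out a library or a mouse. After treatment its values were 1.57, 1.74, 2.36 and 1.35 CPM in CD34- and 1.60, 3.13, 2.58 and 2.23 CPM in CD34+ libraries, which overlapped, and the difference of 0.43 (SE 0.20) was not called (adjusted p = 0.108).

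Eif2ak4 (GCN2, the sensor of uncharged tRNA) had 3.05, 2.68, 2.55 and 2.21 CPM in untreated CD34- and 2.79, 2.58, 3.36 and 3.24 CPM in untreated CD34+ libraries, which overlapped. After N1-AcSpd it had 2.39, 2.45, 1.94 and 2.05 CPM in CD34- and 3.19, 3.13, 2.58 and 2.52 CPM in CD34+ libraries. Only the second set was apart. Its log2 fold change was 0.37 (adjusted p = 0.0393), while that in untreated cells was 0.19 (adjusted p = 0.313), each with an SE of 0.13. The difference between these effects was not past the test (interaction, unadjusted p = 0.331), and the N1-AcSpd call was lost with DESeq2 (adjusted p = 0.0924). Eif2ak3 (PERK, the kinase of endoplasmic reticulum stress) had 1.25, 1.15, 1.56 and 1.35 CPM in untreated CD34- and 0.910, 0.439, 0.975 and 1.49 CPM in untreated CD34+ libraries, and 1.44, 1.03, 1.10 and 1.23 CPM in CD34- and 1.48, 1.48, 1.23 and 1.23 CPM in CD34+ libraries after N1-AcSpd. It was not called in either condition (-0.47, SE 0.27, and 0.18, SE 0.26).

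The eIF3 complex, the scaffold on the small subunit, split into members that fell and members that did not move detectably. In untreated CD34+ cells 7 of 14 were lower and none higher, and under N1-AcSpd 8 of 14 were lower, against 16.1% and 16.8% of all genes lower. With library totals Eif3b, Eif3d and Eif3j2 kept their call in both conditions, Eif3j1 in untreated cells alone, and Eif3h was called higher in both. Eif3b, a core subunit, was lower, at -0.30 (SE 0.04, adjusted p = 5.42e-05) and -0.24 (SE 0.04, adjusted p = 0.000279). Its values were 73.5, 73.99, 75.1 and 75.98 CPM in untreated CD34- and 57.7, 65.7, 60.1 and 59.2 CPM in untreated CD34+ libraries, and 77.01, 80.03, 77.2 and 80.6 CPM in CD34- and 66.9, 69.01, 65.2 and 65.6 CPM in CD34+ libraries after N1-AcSpd, without overlap. Eif3d, a subunit that can itself bind a cap, had 96.98, 97.2, 92.3 and 92.3 CPM in untreated CD34- and 79.8, 84.05, 79.5 and 81.1 CPM in untreated CD34+ libraries. With N1-AcSpd its values were 99.1, 108, 102 and 107 CPM in CD34- and 91.1, 89.7, 88.8 and 83.6 CPM in CD34+ libraries. The fractions were again apart, at -0.22 (SE 0.04) and -0.24 (SE 0.04). Eif3g, of the complex's outer module, was lower, at -0.15 and -0.22, and Eif3i, its neighbour there, at -0.12 and -0.13. Eif3j2, which encodes a loosely held subunit, had 58.4, 60.8, 55.9 and 53.7 CPM in untreated CD34- and 47.3, 49.3, 46.7 and 42.6 CPM in untreated CD34+ libraries, and 59.4, 59.03, 60.8 and 55.7 CPM in CD34- and 49.4, 50.2, 48.5 and 41.4 CPM in CD34+ libraries after N1-AcSpd. Its fractions did not overlap (-0.30, SE 0.06, and -0.31, SE 0.06), and its near-identical paralogue Eif3j1 differed by -0.28 and -0.27, so the pair may share reads and is uncertain as 2 separate results. Eif3m was also called (-0.11 and -0.14), with counts within 5% of those of the overlapping opposite-strand gene Ccdc73 in all 16 libraries. Eif3l was called under N1-AcSpd alone (-0.10 against -0.05, unadjusted p of the edgeR interaction = 0.342), a call that library totals turned to 0.02. Eif3e, Eif3f, Eif3h and Eif3k were called in neither condition under TMM scaling, with log2 fold changes from -0.10 to 0.06, and Eif3a and Eif3c varied more among mice, with SEs of 0.11 and 0.13.

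Among 11 genes of the cap-binding eIF4F complex and its helicase partners, Eif4a2 and Eif4e3 were higher in CD34+ cells in both conditions, and Eif4e and Eif4e2 were lower in both. Eif4e3 (ENSMUSG00000093661, chromosome 6, 99625135 to 99666771, minus strand), a cap-binding relative of eIF4E, had 13.5, 10.8, 13.6 and 11.1 CPM in untreated CD34- libraries and 16.04, 17.4, 16.6 and 18.5 CPM in untreated CD34+ libraries. In treated cells it had 9.98, 9.61, 8.55 and 9.68 CPM in CD34- and 12.3, 13.8, 12.2 and 16.02 CPM in CD34+ libraries. The CD34+ libraries lay above all CD34- libraries of the same condition, with log2 fold changes of 0.48 (SE 0.10, adjusted p = 0.00208) and 0.52 (SE 0.10, adjusted p = 0.00101). A gene model on the same strand, Gm20696, overlaps Eif4e3 and had counts within 5% in 8 of 16 libraries. Eif4a2 (ENSMUSG00000022884, chromosome 16, 23107444 to 23114136, plus strand), 1 of the eIF4A helicases, had 49.9, 48.3, 47.4 and 48.8 CPM in untreated CD34- and 56.9, 59.6, 55.4 and 60.4 CPM in untreated CD34+ libraries, and 46.6, 42.7, 44.8 and 48.5 CPM in CD34- and 53.6, 58.4, 56.4 and 54.5 CPM in CD34+ libraries after N1-AcSpd. Again the fractions were apart, by 0.26 (SE 0.04, adjusted p = 0.000481) and 0.29 (SE 0.04, adjusted p = 0.000174).

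Eif4e, the main cap-binding protein, had 64.5, 64.9, 64.3 and 66.8 CPM in untreated CD34- and 54.4, 58.9, 60.7 and 57.5 CPM in untreated CD34+ libraries, and 68.7, 71.8, 71.1 and 70.8 CPM in CD34- and 62.6, 59.9, 70.1 and 61.5 CPM in CD34+ libraries after N1-AcSpd. The untreated groups did not overlap and the treated ones did, at log2 fold changes of -0.17 (SE 0.05, adjusted p = 0.0121) and -0.15 (SE 0.05, adjusted p = 0.021). With library totals neither was called (-0.06 and -0.04). Eif4e2, a cap-binding protein of translational repression, was lower, at -0.16 and -0.16. Eif4a1 and Eif4g2, a scaffold that does not bind eIF4E, were called in untreated cells alone (-0.12 and -0.10), and the unadjusted interaction p was 0.496 and 0.34. The scaffolds Eif4g1 and Eif4g3, the helicase stimulators Eif4b and Eif4h, and Eif4a3, a helicase of the exon junction complex, were called in neither condition under TMM scaling.

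The eIF4E-binding protein genes Eif4ebp1, Eif4ebp2 and Eif4ebp3 were not called in either condition. Eif4ebp1 had 390.2, 361, 377 and 352 CPM in untreated CD34- and 349.5, 326, 334 and 326 CPM in untreated CD34+ libraries, which did not overlap, and 409, 336, 413 and 369 CPM in CD34- and 365, 288, 386 and 345 CPM in CD34+ libraries after N1-AcSpd, which did. Its log2 fold changes were -0.15 (SE 0.08, adjusted p = 0.194) and -0.14 (SE 0.08, adjusted p = 0.209), and the untreated one was called in a fit of those 2 groups alone (adjusted p = 0.0305). Eif4ebp2 had 12.04, 12.5, 12.1 and 11.6 CPM in untreated CD34- and 11.8, 12.6, 11.9 and 11.2 CPM in untreated CD34+ libraries, and 10.6, 10.3, 10.6 and 7.67 CPM in CD34- and 12.6, 13.8, 10.7 and 7.75 CPM in CD34+ libraries after N1-AcSpd. Eif4ebp3 had 5.98, 5.24, 5.54 and 5.55 CPM in untreated CD34- and 6.82, 4.55, 4.82 and 5.19 CPM in untreated CD34+ libraries, and 5.32, 4.54, 4.71 and 4.55 CPM in CD34- and 5.31, 4.49, 5.34 and 4.34 CPM in CD34+ libraries after N1-AcSpd. Both overlapped between the fractions throughout. Eif4enif1, whose protein (4E-T) binds eIF4E and takes it to the nucleus and to processing bodies, had 7.82, 8.49, 10.2 and 9.02 CPM in untreated CD34- and 8.30, 7.79, 6.99 and 6.78 CPM in untreated CD34+ libraries. After treatment its values were 10.2, 9.19, 10.1 and 9.72 CPM in CD34- and 6.72, 7.17, 6.75 and 6.87 CPM in CD34+ libraries. It was lower in CD34+ cells, at -0.25 (SE 0.08, adjusted p = 0.0271) with overlap and by -0.51 (SE 0.08, adjusted p = 0.000214) without.

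Elongation divided between its main carriers and their exchange complex. Eef1a1, which delivers aminoacyl-tRNA to the ribosome, had 1921, 1854, 1893 and 1701 CPM in untreated CD34- and 1921, 1758, 1817 and 1633 CPM in untreated CD34+ libraries, and 1724, 1623, 1629.5 and 1564 CPM in CD34- and 1776, 1620.4, 1475 and 1648 CPM in CD34+ libraries after N1-AcSpd. Eef2, which moves the ribosome along, had 418, 399, 431 and 364 CPM in untreated CD34- and 422, 401, 414 and 379.7 CPM in untreated CD34+ libraries, and 402, 363, 380.1 and 374 CPM in CD34- and 411, 377, 351 and 388 CPM in CD34+ libraries after N1-AcSpd. Both genes overlapped between the fractions, with log2 fold changes from -0.05 to 0.01 and an SE of 0.06. With library totals they lay between 0.07 and 0.12, not called. By contrast, the genes of the exchange complex that recharges eEF1A were called lower in both conditions. Eef1d had 273, 269, 273 and 274 CPM in untreated CD34- and 214, 226, 226 and 228 CPM in untreated CD34+ libraries, and 270.5, 281, 283 and 288 CPM in CD34- and 229.8, 239.97, 228 and 230.3 CPM in CD34+ libraries after N1-AcSpd (it is given in full for its small error, chosen after its values were seen). Its log2 fold changes were -0.29 (SE 0.03, adjusted p = 3.83e-06) and -0.27 (SE 0.03, adjusted p = 4.93e-06). Eef1g, its structural subunit, differed by -0.16 and -0.19, and Eef1b2, an exchange subunit, by -0.18 and -0.16. Eef1e1, a part of the aminoacyl-tRNA synthetase complex, differed by -0.26 and -0.26. Under library totals Eef1d kept its call in both conditions, and Eef1g, Eef1b2 and Eef1e1 lost theirs.

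Enzymes that modify elongation factors moved both ways. Eef1akmt2, a lysine methyltransferase of eEF1A, had 5.16, 7.28, 4.89 and 5.01 CPM in untreated CD34- and 8.36, 7.07, 7.64 and 7.29 CPM in untreated CD34+ libraries. After N1-AcSpd it had 5.94, 5.53, 5.85 and 6.23 CPM in CD34- and 6.76, 6.20, 7.48 and 7.22 CPM in CD34+ libraries. The untreated groups overlapped through 1 high CD34- library of mouse 2, and the increase of 0.45 (SE 0.11, adjusted p = 0.00743) was called, while that under N1-AcSpd was not (0.23, adjusted p = 0.135). Fgfr2, which overlaps Eef1akmt2 on the same strand, had a mean count of 13523, against 134.9 for Eef1akmt2. The part of Fgfr2 in these values was not tested. Eef2kmt, a lysine methyltransferase of eEF2, had 15.6, 14.6, 15.02 and 17.7 CPM in untreated CD34- and 16.9, 18.7, 19.1 and 19.4 CPM in untreated CD34+ libraries, and 18.2, 16.9, 17.7 and 16.9 CPM in CD34- and 18.1, 18.9, 18.5 and 19.7 CPM in CD34+ libraries after N1-AcSpd. It was higher by 0.24 (SE 0.06, adjusted p = 0.00794) in untreated cells, and the 0.11 under N1-AcSpd was not called. Eef1akmt4 had 12.4, 12.3, 11.5 and 11.3 CPM in untreated CD34- and 8.99, 12.3, 9.37 and 8.58 CPM in untreated CD34+ libraries, and 13.7, 15.04, 12.4 and 14.4 CPM in CD34- and 10.7, 11.2, 11.8 and 10.8 CPM in CD34+ libraries after N1-AcSpd. It was lower, at -0.27 (adjusted p = 0.0467) with overlap and by -0.32 (adjusted p = 0.0207) without, and the same-strand gene model Gm49333 had counts within 5% in 14 of 16 libraries. Eef2k, the kinase that inactivates eEF2, had 7.61, 7.47, 8.18 and 8.34 CPM in untreated CD34- and 8.70, 7.57, 8.67 and 9.14 CPM in untreated CD34+ libraries and 7.26, 6.70, 8.66 and 7.42 CPM in CD34- and 8.65, 8.48, 7.24 and 7.87 CPM in CD34+ libraries after N1-AcSpd. These overlapped, and neither difference was called (0.11 and 0.10, SE 0.08). Eef1akmt1 was lower, at -0.20 and -0.18, and Eef1akmt3 was at 0 in 3 CD34+ libraries and was not called.

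Under TMM scaling the 2 genes of several paralogue pairs lay on opposite sides of 0, a pattern chosen for description after the values were seen. A ratio of UMIs within a library does not depend on the scaling and compares libraries, not the levels of the 2 genes, and no test was run on it. For each 100 UMIs of Eif1 there were 2.23, 2.16, 2.09 and 2.34 UMIs of Eif1b in untreated CD34- libraries and 3.11, 2.98, 3.06 and 3.51 in untreated CD34+ libraries. After N1-AcSpd there were 1.65, 1.77, 1.78 and 1.70 in CD34- and 2.91, 3.09, 2.73 and 3.11 in CD34+ libraries. Each CD34+ library was above all CD34- libraries, and the treated CD34- libraries lay below the untreated ones. The UMIs of Eif1 cannot be told apart from those of Ide, as given above, which limits this ratio. Eif4a2 per 100 Eif4a1 came to 26.8 ± 0.785 (mean ± SD, n = 4) in untreated CD34- and 34.9 ± 2.12 in untreated CD34+ libraries, and to 23.9 ± 1.54 and 30.99 ± 1.53 after N1-AcSpd. Eif4e3 per 100 Eif4e came to 18.9 ± 2.59 and 29.6 ± 2.02 in untreated fractions and 13.4 ± 1.04 and 21.6 ± 3.80 in treated ones. Both ratios were higher in CD34+ libraries without overlap within a condition. Eif1ax per 100 Eif1a, of which both genes were lower in CD34+ cells, came to 215 ± 3.27 in untreated CD34- and 253 ± 12.2 in untreated CD34+ libraries, and to 209 ± 7.56 and 248 ± 8.81 after N1-AcSpd. Eif4e2 per 100 Eif4e differed little, at 109 ± 6.59 and 109.8 ± 9.08 in the untreated fractions, with overlap. The ratios of Eif4g3 to Eif4g1, of Eif4ebp2 and of Eif4ebp3 to Eif4ebp1, and of Eef2k to Eef2 overlapped between the fractions in both conditions.

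**Figure D3:**
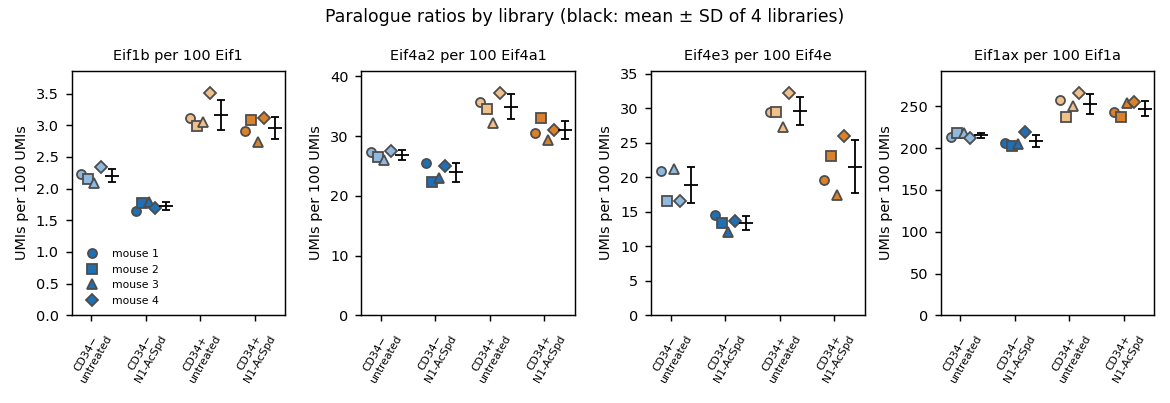
UMIs of 1 paralogue per 100 UMIs of the other (y axis, from 0) in each library, for Eif1b and Eif1, Eif4a2 and Eif4a1, Eif4e3 and Eif4e, and Eif1ax and Eif1a. Symbols mark mice 1 to 4 and black bars the mean ± SD of 4 libraries. The UMIs of Eif1 cannot be told apart from those of Ide. In all 4 panels the CD34+ libraries lie above the CD34- libraries of the same condition, and the mean of Eif1b per 100 Eif1 is 2.21 in untreated and 1.73 in N1-AcSpd CD34- libraries. Ratios that overlapped between the fractions are not drawn.

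Promoter sequence was available from RefSeq (GRCm38.p6) for 48 of the 64 members, as windows from 250 bases before to 50 after each annotated start. The letters CACGTG, the core of the E-box bound by MYC and related factors, stood on either strand in the windows of 11 members, or 22.9%, against 8.09% of all 27025 genes and 11.3% of the 10956 tested genes with a window. The letters CCGGAAGT, an ETS-type core, stood in those of 7 members, or 14.6%, against 4.31% and 8.53%. CACGTG reads the same on both strands and neither motif contains the other. Members with CACGTG included Eif1b and Eef2k, which were above 0 in CD34+ cells, and Eif4a1, Eif4e and Eif3a, which were below, so windows with CACGTG were found on both sides. The 7 members with CCGGAAGT were all below 0 in untreated CD34+ cells, as were 48 of the 62 tested members. The windows below are shown for members described above, each 30 bases long and written along the gene's own strand, with the motif (or its reverse complement) in capitals.
Eif1b (chr9:120492570-120492599, plus strand): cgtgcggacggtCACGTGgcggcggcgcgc
Eif4e (chr3:138527192-138527221, plus strand): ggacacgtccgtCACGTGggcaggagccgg
Eif4a1 (chr11:69672595-69672624, minus strand): cgatcgcctccgCACGTGtaaaggtgctgg
Eef2 (chr10:81176576-81176605, plus strand): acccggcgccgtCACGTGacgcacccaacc
Eef2k (chr7:120842788-120842817, plus strand): cccggggacggcCACGTGagcccgggcgtg
Eif2ak1 (chr5:143817796-143817825, plus strand): gctcttgtgttACTTCCGGcttggggggag
Eif2b4 (chr5:31193120-31193149, minus strand): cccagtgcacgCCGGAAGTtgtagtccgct
Eif3d (chr15:77970877-77970906, minus strand): agctgtgacacACTTCCGGttgtgtctcac
Eef1b2 (chr1:63176821-63176850, plus strand): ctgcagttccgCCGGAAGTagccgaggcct
The match lay 24 bases before the RefSeq start in Eif1b, 64 in Eif4e, 189 in Eif4a1, 43 in Eef2, 31 in Eef2k and 71 in Eif3d, and at or after the start in the others. The RefSeq starts used for Eif1b, Eif4e and Eif2b4 lay 374, 1089 and 291 bases inside the Ensembl genes, so those matches fall within the Ensembl gene spans. Eif4e has a further RefSeq start, 12 bases inside the Ensembl gene, and the printed match is not in its window. Such a match is a description of letters and not of binding.

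Genes that work beside the members were read from 3 lists. Of 24 tested factors of the cap, the poly(A) tail, termination and recycling, 8 were lower and 1 higher in untreated CD34+ cells, 37.5% against the 32.1% of all genes, and 10 and 1 under N1-AcSpd, 45.8% against 33.3%. Paip2b, which restrains poly(A)-binding protein, was apart by -0.80 in untreated cells, and Abce1, which splits ribosomes after termination, by -0.74 (adjusted p = 3.24e-06). Under N1-AcSpd Paip2b and Abce1 were apart by -0.80 and -0.63. Paip1, which stimulates initiation, was the only one higher (0.32 and 0.41). Of 23 tested aminoacyl-tRNA synthetases and scaffold proteins, 8 were lower and none higher in untreated CD34+ cells, 34.8% against 32.1% of all genes, and 13 lower and 1 higher under N1-AcSpd, 60.9% against 33.3%. The largest decreases were those of Qars (-0.74 and -0.79) and Gars (-0.36 and -0.43), while Vars was higher under N1-AcSpd (0.21). Of 31 tested regulators, 5 were higher and 3 lower in untreated cells, and 5 and 4 under N1-AcSpd, so that 25.8% and 29% were called, fewer than the 32.1% and 33.3% of all genes. Among those called, Pdcd4, an inhibitor of the eIF4A helicase, was higher by 0.52 and 0.63, Dph7, which acts in the diphthamide modification of eEF2, by 0.59 and 0.45, and Rps6kb2, an S6 kinase, was lower, at -0.44 and -0.47. Dph3 was lower in untreated cells (-0.26) and Dph2 under N1-AcSpd (-0.32).

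The second comparison asked what N1-AcSpd changed within each fraction. In CD34- progenitors 1 member was called, Eif1b, out of 62 (1.61%), against 0.614% of all genes. Its values, 17.4, 16.2, 15.1 and 15.96 CPM untreated and 13.3, 13.4, 13.2 and 12.5 CPM treated, did not overlap, and the log2 fold change was -0.30 (SE 0.06, adjusted p = 0.0356). This call was lost with library totals (adjusted p = 0.0508), without a low-count filter, in a fit of these 2 groups alone, and in 11 of 20 fits that left out a library or a mouse: each fit without a mouse, without any treated CD34- library, and without the untreated CD34- replicate of mouse 1, mouse 2 or mouse 4. At an unadjusted p under 0.05 there were 16 members, 25.8% against 13.6% of all genes, 11 of them higher, and the groups did not overlap for 14 members, 22.6% against 9.05%. The median over the members was 0.04, and 0.00 over all genes. The deeper counts of the members, described for the first comparison, apply to these shares and to those in CD34+ cells.

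The members with the smallest p among increases were Eif6, Eif2s1 and Eif2ak1, none of them past the adjusted threshold in edgeR. Eif6 had 227, 252, 232 and 234 CPM in untreated and 264, 286, 265 and 271 CPM in treated CD34- libraries. Eif2s1 had 119, 125, 117 and 126 CPM untreated and 129, 138, 141 and 144 CPM treated. Eif2ak1 had 82.4, 86.9, 82.7 and 81.6 CPM untreated and 87.8, 101, 91.5 and 100.03 CPM treated. No treated library of these genes fell within the untreated range, and the log2 fold changes were 0.20, 0.18 and 0.19, with adjusted p from 0.0768 to 0.078. With the mouse as a replicate block, 4 members were called, Eif6, Eif2ak1 and Eif3l higher and Eif1b lower, against 1.83% of all genes. DESeq2 called 8 (Eif6, Eif2s1, Eif2ak1, Eif3l and Eif3d higher, and Eif1b, Eef1b2 and Eif4e3 lower), or 12.9%, against 2.93% of all genes. Of the 9 differentiated keratinocyte markers, 8 also had higher means in treated than in untreated CD34- libraries, none of them called, and their part was not tested.

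In CD34+ HFSCs edgeR called 0 members, against 0.325% of all genes, and 15 had an unadjusted p under 0.05, 24.2% against 13.2%, with 10 of them higher. The groups did not overlap for 5 members (Eif2ak1, Eif2s1, Eif4a1, Eif4e3 and Eif5b), 8.06% against 6.81% of all genes. The smallest p among increases belonged to Eif3b, Eif3d and Eif2ak1. Eif3b had 57.7, 65.7, 60.1 and 59.2 CPM in untreated and 66.9, 69.01, 65.2 and 65.6 CPM in treated CD34+ libraries. Eif3d had 79.8, 84.05, 79.5 and 81.1 CPM untreated and 91.1, 89.7, 88.8 and 83.6 CPM treated. Eif2ak1 had 72.8, 78.1, 73.6 and 76.5 CPM untreated and 81.9, 81.4, 85.2 and 84.5 CPM treated. Eif3b and Eif3d overlapped between the groups and Eif2ak1 did not, with log2 fold changes of 0.14, 0.12 and 0.15 and adjusted p from 0.167 to 0.202. Among decreases the smallest p belonged to Eef1b2, Eif4e3 and Eif4g3. Eef1b2 had 304, 287, 303 and 266 CPM untreated and 264, 271, 234 and 255 CPM treated. Eif4e3 had 16.04, 17.4, 16.6 and 18.5 CPM untreated and 12.3, 13.8, 12.2 and 16.02 CPM treated. Eif4g3, the less studied eIF4G scaffold, had 7.85, 6.91, 8.13 and 8.88 CPM untreated and 6.50, 5.92, 4.85 and 8.10 CPM treated. Their log2 fold changes were -0.18, -0.33 and -0.32, none past the adjusted threshold. All treated libraries of Eif4e3 were below the lowest untreated one, and the other 2 genes overlapped. DESeq2 called 5 members, all higher (Eif3b, Eif3d, Eif2s1, Eif2ak1 and Eif4a1), or 8.06%, against 2.22% of all genes, and the replicate block called none, against 0.798% of all genes. Here, too, 8 of the 9 differentiated keratinocyte markers had higher treated means, none called.

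The 2 treatment comparisons used different libraries of the same mice. In 10 members (Eif1a, Eif2ak1, Eif2s1, Eif3b, Eif3d, Eif3l, Eif4a1, Eif4e, Eif5 and Eif6) the treated library was higher in each of the 4 mice in both fractions, which is 16.1% of the members against 5.03% of all genes. In 5 (Eef1b2, Eif1b, Eif3c, Eif4e3 and Eif4g3) it was lower in each, 8.06% against 3.45%. Both sets were read under TMM scaling, members were counted more deeply than most genes, and no test was made of them as sets. Of the genes described irrespective of their change, Eef1a1 was at -0.17 (SE 0.06) in CD34- and -0.13 (SE 0.06) in CD34+ cells, Eef2 at -0.09 and -0.08, and Eif4ebp1 at 0.05 and 0.05, with no adjusted p below 0.2. Eif4e was at 0.12 and 0.13, and Eef2k at -0.07 and -0.08. Among the eIF2 kinases, Eif2ak2 was at 0.12 and -0.11, Eif2ak3 at -0.15 and 0.51 (SE 0.27), and Eif2ak4 at -0.25 and -0.06. Eif4ebp2 was at -0.30 (SE 0.14) in CD34- cells, where the groups did not overlap but mouse 4 lay far below the other treated libraries, and at -0.08 in CD34+ cells. Eif4ebp3 was at -0.22 and -0.13. None of these passed the test. No gene of the 3 lists of other translation genes was called in either fraction.

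**Figure D4:**
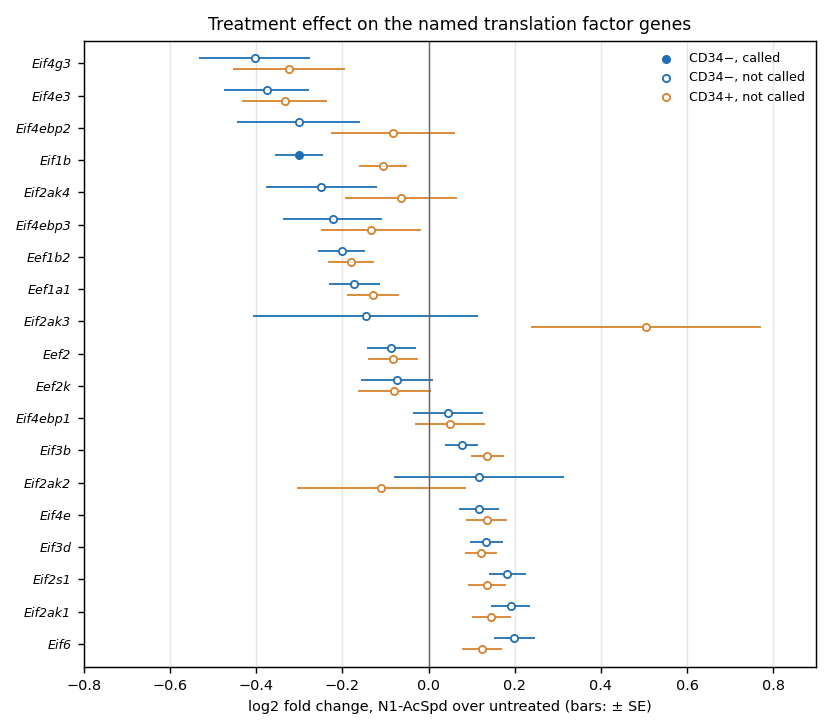
Log2 fold changes, N1-AcSpd over untreated (x axis), with 1 SE on each side, in CD34- (blue) and CD34+ (orange) cells, for the members described in the treatment comparisons. Only Eif1b in CD34- cells, at -0.30, passed an adjusted p under 0.05 (filled point). Eif6, Eif2ak1, Eif2s1, Eif3d, Eif4e, Eif3b and Eif4ebp1 lie right of 0 in both fractions. Eif4g3, Eif4e3, Eif1b, Eef1b2, Eef1a1, Eef2, Eef2k, Eif4ebp2, Eif4ebp3 and Eif2ak4 lie left of it in both. Eif2ak2 and Eif2ak3 differ in sign between the fractions.

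The interaction asked whether the fractions differed in their response to N1-AcSpd. By edgeR no member and no gene was called (0% of all genes), DESeq2 called 72 genes, 0 of them members, and 2 members had an unadjusted p under 0.05, 3.23% against 4.19% of all genes. These were Eif1b (0.19, SE 0.08, unadjusted p = 0.0274), whose treatment effect was -0.30 in CD34- and -0.11 in CD34+ cells, and Eif4enif1 (-0.26, SE 0.11, unadjusted p = 0.0357), with 0.14 and -0.12. Both had an adjusted p of 1. Next by p in each direction came Eif2ak3 (0.65, SE 0.37) and Eef2kmt (-0.13, SE 0.09).

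The 2 members not tested were all but absent. Eef1a2, the eEF1A form of muscle and neurons, had 1 UMI in the 16 libraries together, in a treated CD34- library of mouse 2. Eif4e1b, an eIF4E form known from oocytes, had 3 UMIs, each in a different CD34+ library.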

How the data were processed

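RNA from 16 libraries (4 mice, 4 groups) was read by 3′ sequencing, and, per the labels and the study's methods, the authors demultiplexed reads with FLEXBAR, aligned them with Kallisto (0.45.0 in the submitters' processing notes) to mm10, assigned them with BEDTools and deposited counts of unique UMIs per Ensembl gene, not normalised. The annotation release and strand setting are not given in the sources used here. Symbols were mapped with GRCm38 gene names, and empty cells were read as 0. Library totals (15480075 to 29074855 UMIs) set the precision. The p-values of the main fit rest on the spread between libraries within groups, estimated over all 16 libraries without a term for the mouse.

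Counts of genes with a mean of at least 5 (19049) were fitted over all 16 libraries by group with edgeR 4.0.16 (R 4.3.3, TMM scaling, quasi-likelihood test, two-sided) and p-values were adjusted by Benjamini-Hochberg over all genes tested, with calls at 0.05. CPM were computed from TMM-scaled totals. Groups came from the labels. Libraries of equal replicate number also share a code in the labels, and the study's methods name 4 independent donors. Equal numbers were therefore read as 1 mouse, which the labels do not state in words. Deviations from the group means of same-mouse libraries nevertheless correlated little (mean r = 0.014, from -0.069 to 0.086 over 24 pairs). Alternatives were DESeq2 1.42.0 and its size factors, library totals, filterByExpr, no filter, the mouse as a replicate block, the compared groups alone and leaving out each library or mouse. Thinning every library to the smallest total and dropping members with shared counts were added after seeing the data.

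The members and the lists of other genes were chosen with earlier results of these data known. Values in every library are given for the 5 largest called changes in each direction per cell type comparison (mean count of at least 50), called members in the treatment comparisons or else the 3 of smallest p in a direction, the 2 of smallest p in each direction of the interaction, and 14 genes irrespective of change (Eef1a1, Eef1a2, Eef2, Eef2k, Eif2s1, the 4 eIF2 kinases, Eif4e, the 3 eIF4E-binding proteins and Eif6). From each other list the 2 largest called changes in each direction with that mean count were named. Promoter windows were read from RefSeq tables for GRCm38.p6.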

Additional observations from a re-analysis of the deposited data

Results flagged for a closer look

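Among 112 groups of 4 libraries, 28 members by 4 groups, 4 held a library apart from the other 3 by Dixon's 95% limit, and chance alone marks about 1 in 20 groups. Eef1akmt2 had a high untreated CD34- library of mouse 2 at 7.28 CPM, against 4.89 to 5.16 CPM in the others. Eif4ebp2 had a low N1-AcSpd CD34- library of mouse 4 at 7.67 CPM, against 10.3 to 10.6 CPM, and its N1-AcSpd CD34+ library of the same mouse was also the lowest, at 7.75 CPM. Eif4g3 had a low untreated CD34- library at 7.01 CPM, against 8.34 to 8.60 CPM. Eif6 had a high untreated CD34+ library of mouse 2 at 182.0 CPM, against 167 to 169 CPM, still below every CD34- library.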

How the results depend on the processing

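With library totals, Eif3m and Eif4g2 (untreated) and Eif3l (N1-AcSpd) lost their calls with a changed sign (0.01, 0.01 and 0.02), and no other called cell type value changed sign under any alternative. Under that scaling, 19 members (8 higher, 11 lower) were called in untreated cells in place of 37, and the median log2 fold change of the members was -0.0081 in untreated and -0.0302 in N1-AcSpd cells. In the cell type comparisons, DESeq2 called 37 and 34 members, against 5934 and 6227 of 19049 genes. The replicate block called 37 and 36, against 6483 and 6646 of 19049 genes. No low-count filter gave 30 and 27, against 5294 and 5564 of 32989 genes. The compared groups alone gave 33 and 27, against 5450 of 18842 and 5752 of 19188 genes. Thinning gave 31 and 30, against 5473 and 5764 of 18211 genes. Without Eif1, Eif2s2, Eif3m, Eif3j1 and Eif3j2, left out for shared counts, 32 of 57 and 29 of 57 were called. Eif2ak1, Eif4e3 and Eef1akmt4 stayed in, with counts within 5% of an overlapping gene in 10, 8 and 14 of 16 libraries. Leaving out a library or a mouse gave 22 to 37 in untreated cells (22 without mouse 1 and 23 without mouse 3) and 24 to 35 in N1-AcSpd cells. Over all genes, leaving these out gave 4506 to 6210 calls in untreated and 4927 to 6369 in N1-AcSpd cells. Calls were followed gene by gene through these 20 fits for part of the members only. In untreated cells the calls lost were those of Eif2ak1 (6 fits), Eif2ak2 (5), Eef1akmt2 (3), Eef2kmt (2) and Eif4e (2). Under N1-AcSpd they were those of Eif2ak4 (8 fits), Eif4e (8) and Eef1akmt4 (6). The treatment call in CD34- cells was the least stable: 0 members with library totals, no low-count filter, the compared groups alone or thinning, 4 with the replicate block (mouse), 8 with DESeq2, and 0 to 2 when a library or mouse was left out, the 2 being higher and found without the treated CD34- library of mouse 1. In CD34+ cells only DESeq2 called members (5), and the replicate block changed no count of called members by over 1.5 times other than that in CD34- treatment, while over all genes it raised the treatment calls from 117 to 349 in CD34- and from 62 to 152 in CD34+ cells. The cause of these differences was not tested. The 4 libraries a group and mean counts of 24.7 to 42.8 for Eef1akmt3, Eif2ak3 and Eif2ak2 limit what could be seen there.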
